A study of Mus musculus with 3 samples.

Results

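The collagen genes of mouse paw stroma are described here, as every gene whose symbol reads Col, a number, the letter a and a number. The rule found 44 genes among the 32285 in the files, and 42 of them had at least 20 unique molecular identifiers (UMIs, each standing for 1 captured RNA molecule) over both stromal libraries. Col26a1, with 20 UMIs, and Col7a1, with 49, lay just inside that limit. Col6a4, with 14 UMIs, and Col19a1, with 3, lay outside it and were not used.

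The cells came from mouse hind paws in the K/BxN serum transfer model of arthritis, in which an intraperitoneal injection of 200 µl of serum from arthritic K/BxN mice brings on an antibody-driven arthritis. Skin, muscles and tendons were taken off the paw and the rest was digested with collagenase IV and DNase. CD45- stromal cells were sorted at steady state (day 0, 1 library) and at day 5 after serum (1 library), and another library held myeloid cells of day 9. The labels give no strain, age, sex or number of mice for a library. With 1 library per day there is no replicate check, so no p-value is given. Every interval is a 95% interval for counting error alone, and day and library cannot be told apart.

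Collagens are triple-helical proteins of the extracellular matrix, each built from 3 alpha chains. Types I, II, III, V, XI, XXIV and XXVII are fibrillar: type I bears the load of bone and tendon, type III runs with it in soft tissue, type V sets the width of type I fibrils, and types II and XI build cartilage fibrils. Types IX, XII, XIV, XVI and XXII attach to the surface of fibrils, type IV forms the network of basement membranes, type VI makes beaded filaments around cells, and types VIII and X form short-chain networks. In the joint, tenocytes, osteoblasts, chondrocytes, lining fibroblasts and sublining fibroblasts each lay down a matrix of their own, and collagenases break it down in arthritis.

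The files held 7740 barcodes with 77842586 UMIs at day 0 and 11900 barcodes with 122224428 UMIs at day 5. After the cell filter and doublet removal 6912 and 10108 cells remained, with medians of 9674 and 9112.5 UMIs per cell. The 2 stromal libraries shared 32 barcodes, and the myeloid library shared 22 with day 0 and 35 with day 5. Classes were named from marker genes that hold no collagen, and the collagen genes were left out of clustering, so that no class rests on them. At day 0 and day 5 there were 144 and 159 lining-like cells (Prg4), 1000 and 359 Pi16-like fibroblasts, 996 and 1245 tenocyte-like cells (Fmod), 514 and 536 osteoblast-like cells (Ibsp), 100 and 57 chondrocyte-like cells (Acan) and 83 and 53 endothelial-like cells. The Saa3-like fibroblasts numbered 12 at day 0 and 1365 at day 5, so they have no day comparison. They are set against the 6680 other fibroblasts of day 5, which are the lining and Pi16 cells and 8 clusters kept by number because their leading genes named no class.

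Each class carried its marker. Prg4 stood at 59912 and 58361 CPM (counts scaled to a class total of 1000000 UMIs) in lining cells, Fmod at 3005 and 3057 CPM in tenocytes, Ibsp at 8680 and 9916 CPM in osteoblasts, and Saa3 at 2355 CPM in the Saa3 cells of day 5. The chondrocyte class was mixed: Acan stood at 635 and 413 CPM, but Ibsp at 3068 and 9036 CPM and Saa3 at 0 and 1921 CPM. The part of these other markers in the chondrocyte values by day was not tested. Leukocyte markers were near 0 in the named stromal classes, with a summed level of 4.55 CPM over 7 genes in Saa3 cells.

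Collagen RNA made up 1.66% of all stromal UMIs at day 0 and 1.39% at day 5. The share was highest in osteoblasts, at 3.13% and 2.73%, and tenocytes held 2.52% and 1.74%. Saa3 cells spent 1.78% of their UMIs on collagen at day 5, and the other fibroblasts of that library 1.10%, against 1.41% for those fibroblasts at day 0. Pi16 cells had 1.03% and 1.04%, lining cells 0.490% and 0.534%, and endothelial cells 0.178% and 0.434%. Without a day 5 cluster of 23 endothelial cells that carries fibroblast markers the last value was 0.206%. The share was thus lower at day 5 in tenocytes, osteoblasts and the pooled fibroblasts outside the Saa3 group, and about level in Pi16 cells. The pooled fibroblasts and the tenocytes were not the same mix of cells on both days. Fibroblast cluster 5 held 753 and 2141 cells, and cluster 0 held 1200 and 825. Col3a1 stood at 1598 and 1253 CPM in cluster 5 and at 5107 and 4501 CPM in cluster 0. The part of the mix in these shares was not tested.

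The make-up of that RNA differed by class. Col1a1 and Col1a2, the chains of type I, gave 40.6% and 36.1% of the collagen UMIs of osteoblasts at day 0, and 28.4% and 33.4% of those of tenocytes. In lining cells they gave 18.4% and 17%, while type IV chains gave 14.4%, against 1.00% in Pi16 cells and 0.347% in osteoblasts. Endothelial cells stood apart, with 58.7% type IV and 1.28% Col3a1. Type VI chains took 16.4% in lining cells, 15.0% in Pi16 cells and 5.68% in osteoblasts.

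**Figure D1:**
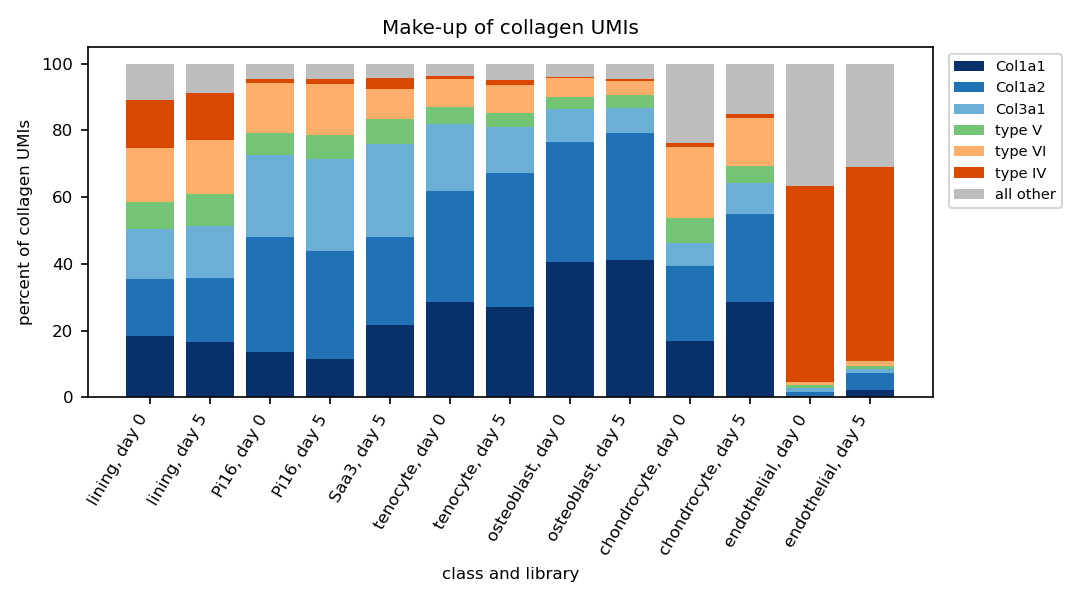
Percent of collagen UMIs (y axis) given by Col1a1, Col1a2, Col3a1 and the summed type V, VI and IV chains, with all other collagens in grey, for each class and library (x axis; each bar is 1 class in 1 library, with no error bar). Type I fills most of the osteoblast bars, and type IV fills 58.7% of the endothelial bar at day 0 and 58.1% at day 5.

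Among the fibrillar chains Col1a1 (ENSMUSG00000001506, mm10 chromosome 11, 94936224 to 94953042) stood at 12718 CPM in osteoblasts, 7161 CPM in tenocytes, 1404 CPM in Pi16 cells, 1077 CPM in chondrocytes and 899 CPM in lining cells at day 0. Endothelial cells, which should lack it, held 6.08 CPM at day 0 and, without 1 cluster that carries fibroblast markers, 14.8 CPM at day 5 on 3 UMIs. Col3a1 (ENSMUSG00000026043, chromosome 1, 45311538 to 45349706) had another order among these classes, with 5095 CPM in tenocytes, 3088 CPM in osteoblasts, 2550 CPM in Pi16 cells, 741 CPM in lining cells and 442 CPM in chondrocytes. A 3′ UMI count is 1 tag per molecule and needs no scaling by length, but genes can differ in how well they are caught, so ratios between chains are compared only from class to class. Pi16 cells had 1.82 Col3a1 UMIs for each Col1a1 UMI at day 0 and 2.44 at day 5, tenocytes 0.712 and 0.512, and osteoblasts 0.243 and 0.176. The Col1a1 to Col1a2 ratio ran the other way, at 0.397 and 0.350 in Pi16 cells, 0.853 and 0.678 in tenocytes, and 1.13 and 1.08 in osteoblasts. Pi16 cells thus carried the most type III relative to type I of these 3 classes in both libraries, and osteoblasts the least.

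Several collagens were concentrated in 1 class. Col22a1 (ENSMUSG00000079022, chromosome 15, 71795795 to 72034227, minus strand), a fibril-associated collagen known from muscle-tendon and cartilage-synovium junctions, had 365 CPM in lining cells at day 0 and 295 CPM at day 5. The next class, osteoblasts, held 22.7 and 55.9 CPM. With each cell thinned to 2000 UMIs, 45.1% and 32.1% of lining cells had a Col22a1 UMI (79.2% and 73.6% unthinned), against 0 and 0.282% of Pi16 cells and 0 of 81 and 0 of 53 endothelial cells. Col22a1 was thus 16.1-fold higher in lining cells than in the next class at day 0 and 5.27-fold higher at day 5.

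Cartilage collagens other than Col11a2 were highest in the chondrocyte class. Col11a2, a chain of type XI, was highest in osteoblasts, at 42.2 and 123 CPM, against 24.1 and 51.2 CPM in chondrocytes. Col2a1, the main cartilage chain, had 399 CPM in chondrocytes at day 0 and 526 CPM at day 5, and 5.72 and 4.33 CPM in osteoblasts, the next class. Col10a1, the collagen of hypertrophic chondrocytes, stood at 243 and 101 CPM, and no other class passed 1.04 CPM. Its gene lies inside Nt5dc1 on the opposite strand. Only 12% and 14.3% of thinned chondrocytes held a Col2a1 UMI and 5.00% and 3.57% a Col10a1 UMI (17% and 17.5%, and 6% and 7.02%, unthinned). No thinned endothelial or Pi16 cell held either, and most cells of the class had none. Col11a1 reached 267 and 345 CPM and Col27a1 154 and 188 CPM there, while Col9a3, a chain of fibril-associated type IX, was found at 20.6 and 18.8 CPM on 18 and 11 UMIs.

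Bone and vessel had their own minor collagens. Col25a1, a transmembrane collagen, stood at 25.3 and 13.6 CPM in osteoblasts, and no other class or cluster passed 1.52 CPM at day 0 or 1.71 CPM at day 5. Col13a1, another transmembrane collagen, was split between endothelial cells (161 and 70.4 CPM) and osteoblasts (85.5 and 110 CPM). Col18a1, whose C-terminal fragment is endostatin, stood at 150 and 763 CPM in endothelial cells. The day 5 endothelial value rests on 1 cluster of 23 cells, all of day 5, with 7 fibroblast markers and a median of 21522 UMIs. Without that cluster Col18a1 stood at 222 CPM and Col13a1 at 153 CPM in the 30 cells left. Col14a1, a fibril-surface collagen, stood at 379 and 366 CPM in Pi16 cells, with 45.9% of thinned cells positive in either library, against 13.9 and 25.1 CPM in lining cells, where 2.08% and 2.56% were positive. It was not particular to Pi16 cells: fibroblast cluster 0 (507 and 431 CPM) and cluster 4 (446 and 424 CPM) held more.

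**Figure D2:**
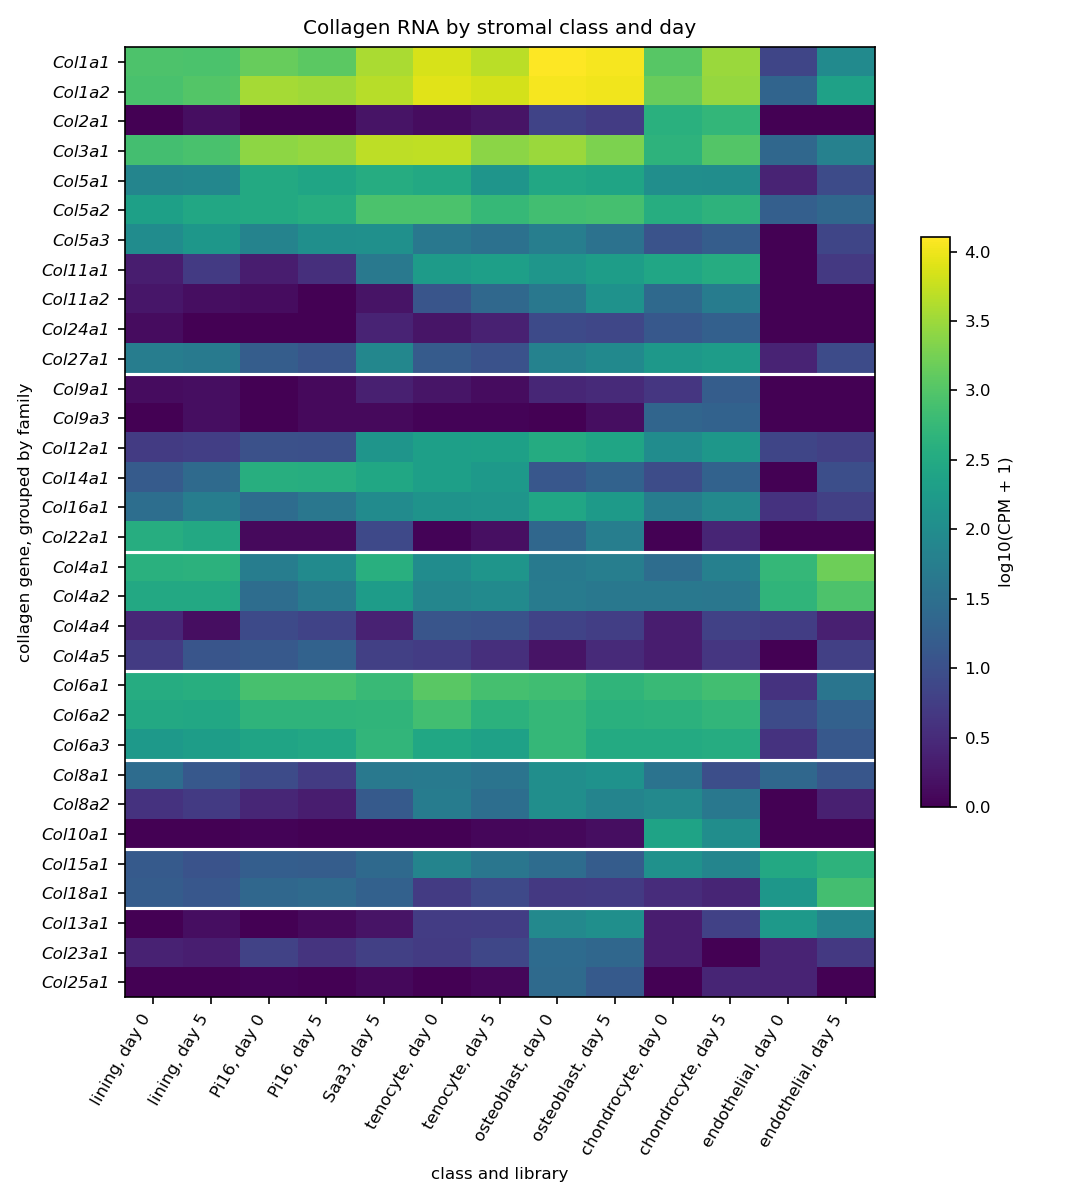
Collagen RNA as log10(CPM + 1) (colour) for the 32 of 42 genes that reach 10 CPM in at least 1 column, in each class and library (columns; summed UMIs of 1 library, no replicates), with white lines between families. Col22a1 is bright in the lining columns, Col2a1 and Col10a1 in the chondrocyte columns, and Col4a1 and Col4a2 in the lining and endothelial columns.

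The Saa3 fibroblasts differed in collagen RNA from the other fibroblasts of the same day 5 library. Col12a1 was 5.10-fold higher in them and Col1a1, Col3a1, Col5a1, Col5a2, Col11a1 and Col27a1 were 2.01- to 2.92-fold higher. Col4a4, Col4a5, Col4a6, Col15a1 and Col22a1 were lower, the last against a pool whose Col22a1 came mostly from lining cells. Of the 37 members with at least 20 UMIs in the 2 groups, 14 (37.8%) were at least 1.5-fold higher in Saa3 cells, against a background of 16.3% of the 14692 genes measured. Another 8 (21.6%) were at least 1.5-fold lower, against 28.2%. The median log2 ratio was 0.32 over the members and -0.14 over all genes. Both groups come from 1 library, so no batch separates them, but Saa3 cells were deeper, with a median of 14156 UMIs against 8953.5. With every cell thinned to 2000 UMIs Col12a1, Col27a1, Col11a1, Col5a2, Col5a1 and Col3a1 kept a ratio of at least 1.5. The summed markers of other classes were also higher in Saa3 cells than in the other fibroblasts: the 10 osteoblast markers summed to 917 against 149 CPM, the 10 tenocyte markers to 892 against 333 CPM and the 10 chondrocyte markers to 176 against 133 CPM. Ibsp stood at 160 against 34.2 CPM and Acan at 34.3 against 0.518 CPM, while Bglap stood at 9.77 against 21.8 CPM and Matn1 and Ucma were at 0 in Saa3 cells. At clustering resolution 0.5 a cluster with 335 cells of day 5, led by Spp1, Mmp13 and Ibsp and holding Tnc among its leading genes, was named osteoblast. The part of these markers in the collagen values was not tested.

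Col12a1 (ENSMUSG00000032332, chromosome 9, 79598991 to 79718831, minus strand), which sits on type I fibrils and links them to the matrix around them, stood at 26.9 CPM in the other fibroblasts and 137 CPM in Saa3 cells (ratio 5.10, interval 4.80 to 5.41). Its UMIs were seen in 15.2% of thinned Saa3 cells, against 1.31% and 2.25% of Pi16 cells and 2.47% and 1.89% of endothelial cells in the 2 libraries. The level in Saa3 cells was below that of tenocytes (210 CPM) and osteoblasts (255 CPM) of the same library. Fibroblast cluster 1, which is among the other fibroblasts, also held 137 CPM at day 5, so the level is not particular to Saa3 cells. Over the 11 alternative settings the ratio ran from 2.58 to 14.3.

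The major fibrillar chains were higher in Saa3 cells than in the pooled other fibroblasts. Col1a1 stood at 1922 CPM in the other fibroblasts and 3857 CPM in Saa3 cells (ratio 2.01, 1.99 to 2.03), and Col3a1 at 2484 and 4996 CPM (2.01, 2.00 to 2.03). Col1a2 differed less, at 3732 and 4671 CPM (1.25, 1.24 to 1.26). Within the pool fibroblast clusters 0 and 1 held more Col1a2 at day 5 than Saa3 cells, at 5570 and 4892 CPM. Col3a1 in Saa3 cells was the highest of all 15 classes and clusters compared at day 5, with fibroblast cluster 10 close to it at 4890 CPM. The type V chains, which start fibrils, stood at 166 and 341 CPM for Col5a1 (2.05, 1.99 to 2.11) and 400 and 886 CPM for Col5a2 (2.21, 2.17 to 2.25). Col11a1 stood at 18.3 and 44.6 CPM (2.44) and Col27a1 at 26.7 and 78.1 CPM (2.92). Within the other fibroblasts, cluster 1 held 69.2 CPM of Col11a1 at day 5, above the Saa3 cells, and 43.4 CPM of Col27a1, below them. The Saa3 cells were thus about equally higher for Col1a1, Col3a1, Col5a1 and Col5a2, and less so for Col1a2. Scaling by TMM or by DESeq2 size factors in place of the total raises every log2 ratio of this comparison by 0.12 or 0.14.

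Beyond the fibrils, Col6a3 stood at 267 and 510 CPM (1.91), while the type VI partner chain Col6a1 stood at 619 and 601 CPM (0.971). There were 0.849 Col6a3 UMIs for each Col6a1 UMI in Saa3 cells, against 0.309 and 0.362 in Pi16 cells and 0.244 and 0.279 in tenocytes. In osteoblasts these chains also lay nearer each other than in Pi16 cells or tenocytes. There Col6a3 stood at 533 and 319 CPM and Col6a1 at 707 and 481 CPM at day 0 and day 5. Col8a1, a short-chain collagen of vessel walls and injured tissue, stood at 24.7 and 45.0 CPM (1.83). Within the pool fibroblast clusters 11, 2 and 1 held more Col8a1 at day 5, at 217, 107 and 92.3 CPM. Col14a1 lay close in both groups, at 282 and 276 CPM (ratio 0.977). Col22a1, also of the fibril surface, was 1.69-fold lower than in the pooled other fibroblasts, at 11.8 and 6.98 CPM. Of the 749 Col22a1 UMIs in that pool 727 were those of lining cells, so few were left for the rest. The lower ratio thus rests on the lining cells and does not hold for the fibroblasts outside them. With cells thinned the Col22a1 ratio changed direction. Rare members above 1.5 were Col24a1, Col9a1 and Col2a1, on 55, 52 and 38 UMIs in all, and the interval for Col2a1 holds 1.

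The lower members were led by type IV chains other than Col4a1 and Col4a2. Col4a5 stood at 20.7 CPM in the other fibroblasts and 5.00 CPM in Saa3 cells, 4.15-fold lower. Col4a4 was 5.45-fold lower and Col4a6 11.3-fold lower, the latter on 130 and 4 UMIs. Col4a1 itself went the other way, at 252 and 385 CPM (1.53, 1.49 to 1.57). Within the pool fibroblast cluster 2 and lining cells held more Col4a1 at day 5, at 847 and 435 CPM. Col15a1, a collagen of the zone under basement membranes, stood at 56.0 and 23.9 CPM, 2.34-fold lower. Type IV chains thus lay on both sides of 1.

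**Figure D3:**
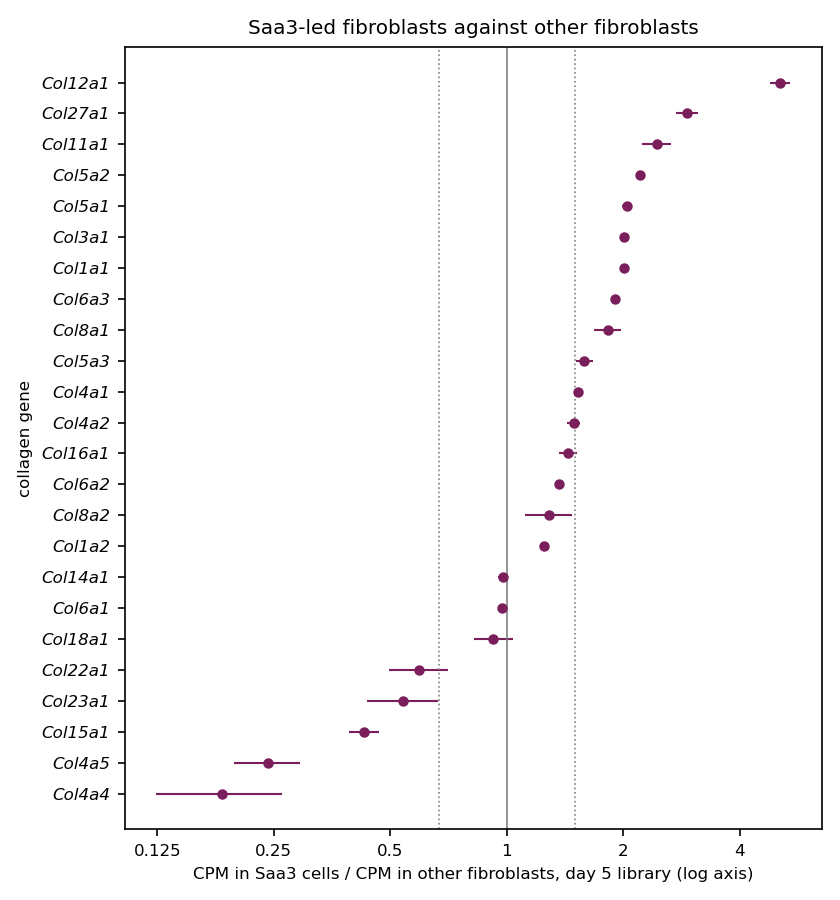
Ratio of CPM in Saa3-like fibroblasts to CPM in other fibroblasts of the day 5 library (x axis, log scale) for the 24 collagen genes that reach 5 CPM in either group (y axis); bars are 95% counting intervals, and dotted lines mark 1.5-fold either way. Col12a1 lies highest at 5.10, Col1a1 and Col3a1 lie at 2.01, and Col15a1, Col4a5 and Col4a4 lie lowest.

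Among the genes that fold, modify and cross-link collagen chains, Saa3 cells were higher for most. Of 20 folding and modification genes 14 were at least 1.5-fold higher and 1 lower, and of 6 crosslinking genes 5 were higher and none lower, against the same background of 16.3% and 28.2%. P4ha3, a prolyl hydroxylase subunit, stood at 9.42 and 77.7 CPM, and P3h2, which hydroxylates prolines of type IV, at 1.12 and 9.86 CPM. Plod2, the telopeptide lysyl hydroxylase, stood at 42.4 and 257 CPM, and Serpinh1, the collagen chaperone HSP47, at 482 and 1174 CPM. Lox and Loxl3, oxidases that start crosslinks, stood at 224 and 637 CPM and at 29.1 and 85.2 CPM. The one lower folding gene, Colgalt2, a collagen galactosyltransferase, was 4.46-fold lower.

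The genes around the fibril divided both ways. Tnc, a matrix protein of healing tissue, stood at 4.18 and 102 CPM, and Cd44 at 48.1 and 245 CPM. Ogn, a small proteoglycan, was 3.07-fold lower and Itga2, a collagen-binding integrin chain, 2.76-fold lower. Of 12 measured collagenase and inhibitor genes 4 were higher and 4 lower, against 16.3% and 28.2% of all genes, so the lower count lies near its background. Timp1 stood at 111 and 2458 CPM, Mmp3 at 166 and 1352 CPM and Mmp13 at 27.2 and 214 CPM, but Timp1 and Mmp3 are among the markers by which the class was named. Timp3 was 2.82-fold lower. Over all lists 80 genes were measured, 32 higher and 15 lower, against the same 16.3% and 28.2%, so the lower count lies below its background.

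The sequence before the start site is shown for members that stood together in this comparison, as the stretch that sets where transcription starts. RefSeq promoters (GRCm38.p6) matched 33 of the 42 members, and 20 of their 36 windows of 100 bases before the start overlap no annotated exon. Windows free of exons follow for 6 members higher in Saa3 cells and for Col4a6, 11.3-fold lower, 5′ to 3′ on the gene's strand, with matches on either strand to the CCAAT box, to the TATAAA box or to the GGGCGG motif in capitals.
Col3a1: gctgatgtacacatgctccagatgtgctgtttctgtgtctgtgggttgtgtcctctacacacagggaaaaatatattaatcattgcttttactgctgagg
Col5a1: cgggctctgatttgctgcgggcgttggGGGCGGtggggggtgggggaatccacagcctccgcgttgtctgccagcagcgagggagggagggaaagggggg
Col6a3: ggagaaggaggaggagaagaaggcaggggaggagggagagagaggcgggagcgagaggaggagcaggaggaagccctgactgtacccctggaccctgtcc
Col11a1: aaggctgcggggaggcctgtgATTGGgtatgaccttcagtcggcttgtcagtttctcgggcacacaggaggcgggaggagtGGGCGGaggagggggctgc
Col24a1: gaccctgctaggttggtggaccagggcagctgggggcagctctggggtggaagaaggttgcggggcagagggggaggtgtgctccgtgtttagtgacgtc
Col27a1: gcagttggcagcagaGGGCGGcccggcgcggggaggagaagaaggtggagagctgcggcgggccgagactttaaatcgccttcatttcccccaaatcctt
Col4a6: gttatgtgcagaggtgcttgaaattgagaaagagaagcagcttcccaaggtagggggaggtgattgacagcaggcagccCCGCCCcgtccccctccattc
They end 1 base before the RefSeq start sites at chromosome 1, 45311538 (Col3a1), chromosome 2, 27886425 (Col5a1), chromosome 1, 90843971 (Col6a3, minus strand), chromosome 3, 114030540 (Col11a1), chromosome 3, 145292472 (Col24a1), chromosome 4, 63215412 (Col27a1) and chromosome X, 141474076 (Col4a6, minus strand). GGGCGG, the core of a GC box, was in 18 of the 36 collagen windows and in 24.7% of 32851 promoter windows of the same length. CCAAT was in 4 of 36 and 18.9%, TATAAA in 2 of 36 and 5.56%, and CANNTG, the E-box bound by basic helix-loop-helix factors such as Scx and not put in capitals, in 12 of 36 and 34.4%. Of the 7 windows printed, GGGCGG was in those of Col5a1, Col11a1, Col27a1 and Col4a6. The RefSeq start of Col27a1 lies inside the gene's annotated span.

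Between the days, the difference shared by most groups was that of Col4a1 (ENSMUSG00000031502, chromosome 8, 11198423 to 11312826, minus strand), a basement membrane chain. Over all stromal cells it had 137 CPM at day 0 against 271 CPM at day 5 (ratio 1.97, 1.93 to 2.02), and 1.78 to 2.02 over the 11 alternative settings. Of the 42 members 5 (11.9%) were at least 1.5-fold higher at day 5, against 9.27% of 16088 genes, and 7 (16.7%) at least 1.5-fold lower, against 8.53%. Without the Saa3 cells Col4a1 stood at 137 and 240 CPM (1.76), so the gene was higher at day 5 outside them too. There 6 members (14.3%) were at least 1.5-fold higher, against 9.05% of all genes, and 5 (11.9%) lower, against 7.66%.

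Endothelial cells were not among the groups counted here and are given below. In each of the 12 other classes or clusters with at least 50 cells per library Col4a1 was higher at day 5, in 8 of them by at least 1.5-fold. In the 7 numbered fibroblast clusters among them, the share of all genes at least 1.5-fold higher and lower was 8.63% and 6.15% in cluster 0, 8.56% and 6.55% in cluster 1, 12.6% and 10.5% in cluster 2, 9.8% and 8.46% in cluster 4, 11.2% and 7.02% in cluster 5, 7.85% and 7.44% in cluster 7, and 10.5% and 8.79% in cluster 10. The ratio was lowest in lining cells, at 402 and 435 CPM (1.08, 0.994 to 1.18), and in osteoblasts, at 48.4 and 55.3 CPM (1.14, 0.953 to 1.37). Both of these intervals hold 1. In Pi16 cells Col4a1 stood at 53.8 and 91.5 CPM (1.70, 1.48 to 1.95), in tenocytes at 99.0 and 139 CPM (1.40, 1.29 to 1.52) and in fibroblast cluster 0 at 186 and 360 CPM (1.94). Fibroblast cluster 2 had the highest fibroblast level, at 457 and 847 CPM (1.85). The other 10 ratios ran from 1.30 to 2.09.

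Col4a2 (ENSMUSG00000031503, chromosome 8, 11312805 to 11449287), the partner chain transcribed from the other strand, differed less. It stood at 94.7 and 138 CPM over all cells (1.46), was above 1 in 9 of the 12 groups and past 1.5 in 3. The Col4a1 to Col4a2 UMI ratio was 1.45 at day 0 and 1.96 at day 5 over all cells. The 2 genes overlap in 22 bases that hold both annotated start sites, shown because both chains are read outward from them: chromosome 8, 11312805 to 11312826 (mm10, plus strand), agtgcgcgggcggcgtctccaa. Endothelial cells, which build the basement membrane of vessels, held 541 CPM of Col4a1 at day 0 and, at day 5, 785 CPM without the cluster that held fibroblast markers (1603 CPM with it).

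**Figure D4:**
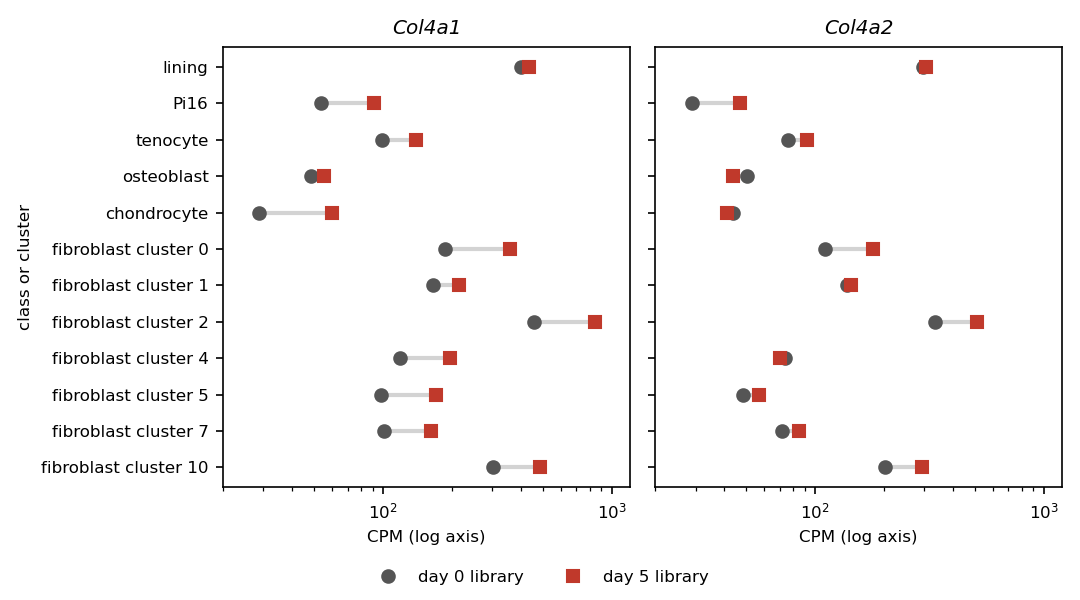
CPM (x axis, log scale) of Col4a1 (left) and Col4a2 (right) at day 0 (circles) and day 5 (squares) in the 12 classes and fibroblast clusters with at least 50 cells per library, endothelial cells left out (y axis); each point is 1 library. The day 5 square lies to the right of the circle in 12 of 12 rows for Col4a1 and in 9 of 12 for Col4a2.

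Col11a1 was also above 1 at day 5 in 8 of the 9 groups where it was measured, Col5a2 in 9 of 12 and Col11a2 in 3 of 3. The Col11a1 interval held 1 in Pi16 cells (0.815 to 5.66) and in fibroblast clusters 0, 1 and 2. The Col11a2 groups were osteoblasts, tenocytes and chondrocytes. In tenocytes the Col11a2 difference was not seen within either main cluster, as given below. In chondrocytes Col11a2 is not taken by day, because that class changed with the settings. Several other members were lower at day 5 in most groups. Col8a2, a short-chain collagen, stood at 28.2 and 15.9 CPM over all cells (0.564, 0.528 to 0.602), was below 1 in 9 of the 10 groups where it was measured, and kept a difference of at least 1.5-fold under all 11 alternatives. Col1a1 stood at 4061 and 3071 CPM (0.756), Col1a2 at 5632 and 4549 CPM (0.808) and Col3a1 at 3455 and 2967 CPM (0.859). Col1a1 was below 1 in 10 of 12 groups, as were Col5a1, Col6a1, Col6a2 and Col15a1. Without Saa3 cells the day ratio of Col3a1 was 0.699 and that of Col5a1 0.627, both lower than with them. Col10a1, Col25a1 and Col2a1 also count among the lower members over all cells. Chondrocytes, their main holders along with osteoblasts, were 100 of 6912 cells at day 0 and 57 of 10108 at day 5, and the part of that in the totals was not tested.

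In tenocytes the type III and type V chains were lower at day 5. Of 26 members measured 8 (30.8%) were at least 1.5-fold lower, against 7.9% of 12398 genes, and 3 (11.5%) higher, against 9.66%, and the median log2 ratio was -0.37 against 0.0037 for all genes. Col3a1 stood at 5095 and 2415 CPM (0.474, 0.467 to 0.481), and Col5a1 (ENSMUSG00000026837, chromosome 2, 27886425 to 28039514) at 304 and 137.5 CPM (0.452, 0.425 to 0.480). These 2 members kept ratios of 0.445 to 0.601 and 0.436 to 0.563 under all 11 alternatives. Col5a2 stood at 879 and 552 CPM (0.627) and Col1a1 at 7161 and 4720 CPM (0.659), while Col1a2 stood at 8398 and 6959 CPM (0.829). Col6a2 stood at 736 and 434 CPM (0.590), Col15a1 at 69.4 and 39.2 CPM (0.564) and Col8a2 at 51.2 and 29.0 CPM (0.565). The fibril-surface collagens Col12a1 (205 and 210 CPM) and Col16a1 (129 and 137 CPM) had intervals that hold 1. The 3 higher members were Col11a2, Col18a1 (4.16 and 7.06 CPM) and Col24a1 (7 and 15 UMIs).

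The tenocyte class is not the same mix of cells on both days, and that touches each of these values. Cluster 0, led by Coch, made up 23.5% of it at day 0 and 58.2% at day 5. Cluster 1, led by Angptl7 and Scx, made up 76.4% and 39.5%. Cluster 28, of 1 and 29 cells, made up 0.1% and 2.33%. At day 5 cluster 28 held 15605 CPM of Col1a1, 16916 CPM of Col1a2 and 7365 CPM of Col3a1. With 1 cell at day 0 it has no day comparison, and its part in the pooled ratios was not tested. Within cluster 0 Col3a1 stood at 1578 and 1137 CPM (0.721) and Col5a1 at 133 and 81.3 CPM (0.610). Within cluster 1 they stood at 6009 and 3640 CPM (0.606) and at 349 and 186 CPM (0.532). Both were lower at day 5 in each of clusters 0 and 1, by less than in the pooled class. Col1a1 was lower by more within clusters 0 and 1, at 0.539 and 0.585. Col5a2 was at least 1.5-fold lower in neither cluster, and Col6a2 only in cluster 1. Of the members measured 5 of 26 were at least 1.5-fold lower in cluster 0 (background 6.71%) and 8 of 25 in cluster 1 (background 7.78%). At least 1.5-fold higher were 4 in cluster 0 (background 13.9%) and 1 in cluster 1 (background 8.88%), Col4a1 among both.

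Col11a2 was higher at day 5 in the pooled class only. There it stood at 10.9 and 23.2 CPM (2.13, 1.70 to 2.68). In cluster 0 it stood at 44.0 and 40.6 CPM (0.922, 0.724 to 1.18) and in cluster 1 at 2.32 and 2.33 CPM (1.00, 0.432 to 2.22). Both intervals within clusters hold 1, and cluster 0, with the higher level, held the larger share of the class at day 5.

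Of the genes that handle collagen, 78 were measured in tenocytes, 7 higher and 12 lower by at least 1.5-fold. Of all genes 9.66% were higher and 7.9% lower, so the higher count lies near its background. Loxl1 stood at 222 and 94.0 CPM and Loxl2 at 199 and 85.1 CPM, while Lox, of the same family, stood at 608 and 996 CPM (1.64). Sox9, a transcription factor of tendon insertion and cartilage, stood at 48.3 and 18.6 CPM, and the collagen-binding integrin chain Itga11 at 54.4 and 25.1 CPM. The stromelysin Mmp3 stood at 21.5 and 136 CPM (6.31) and the collagenase Mmp13 at 0.677 and 6.97 CPM (10.3). Mmp2, a gelatinase, stood at 800.2 and 639 CPM (0.799). Within cluster 0 Mmp3 stood at 7.49 and 112 CPM, Loxl1 at 64.1 and 45.2 CPM, Loxl2 at 130 and 60.05 CPM, and Lox at 1305 and 1362 CPM. Within cluster 1 Mmp3 stood at 25.1 and 73.0 CPM, Loxl1 at 263 and 155 CPM, Loxl2 at 217 and 115 CPM, and Lox at 427 and 578 CPM. Mmp3 was thus higher and Loxl1 and Loxl2 lower at day 5 in both of these clusters. Lox differed by less in them than in the pooled class. The pooled Mmp3 level at day 5 lay above that of both clusters. The pooled class also holds cluster 28, with 1 cell at day 0 and 29 at day 5. Its part in the pooled Mmp3 and Mmp13 values was not tested. Saa3 stood at 3.77 and 23.3 CPM and Ibsp at 3.29 and 22.7 CPM in tenocytes. The 11 Saa3 markers, Mmp3 among them, summed to 164 and 489 CPM, the 10 osteoblast markers to 319 and 536 CPM, and their part was not tested.

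The main chains of osteoblasts lay close between the days. Saa3 itself stood at 1.10 CPM in them at day 0 and 146 CPM at day 5, and the 11 Saa3 markers summed to 1370 and 1194 CPM, with Cxcl5 and Saa1 at 0 at day 0. The 10 osteoblast markers summed to 47011 and 34796 CPM, and the part of either list in the values below was not tested. Col1a1 stood at 12718 and 11261 CPM (0.885) and Col1a2 at 11304 and 10428 CPM (0.923). Of 30 members 3 (10%) were at least 1.5-fold higher, against 8.1% of 11612 genes, and 8 (26.7%) lower, against 5.49%. Col11a2 (ENSMUSG00000024330, chromosome 17, 34039437 to 34066685), a chain of cartilage fibrils also made by bone cells, stood at 42.2 and 123 CPM (2.91, 2.47 to 3.44), and Col22a1 at 22.7 and 55.9 CPM (2.47, 1.96 to 3.13). There were 3.37 Col11a1 UMIs per Col11a2 UMI at day 0 and 1.57 at day 5. Among the lower members, Col15a1 stood at 27.3 and 14.4 CPM (0.530) and Col25a1 at 25.3 and 13.6 CPM (0.539). The more abundant ones were Col6a3 at 533 and 319 CPM (0.599), Col5a3 at 56.3 and 34.3 CPM (0.609), Col3a1 at 3088 and 1983 CPM (0.642) and Col16a1 at 263 and 169 CPM (0.645). Of these Col25a1 kept a difference of at least 1.5-fold under all 11 alternatives and Col15a1 and Col11a2 under 10. Col6a3, Col5a3 and Col3a1 changed direction under 2 of them, where the class was drawn differently. Of 74 handling genes 1 was higher and 7 lower, against 8.1% and 5.49% of all genes, with Loxl1 at 242 and 150 CPM and Timp1 at 1258 and 692 CPM.

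**Figure D5:**
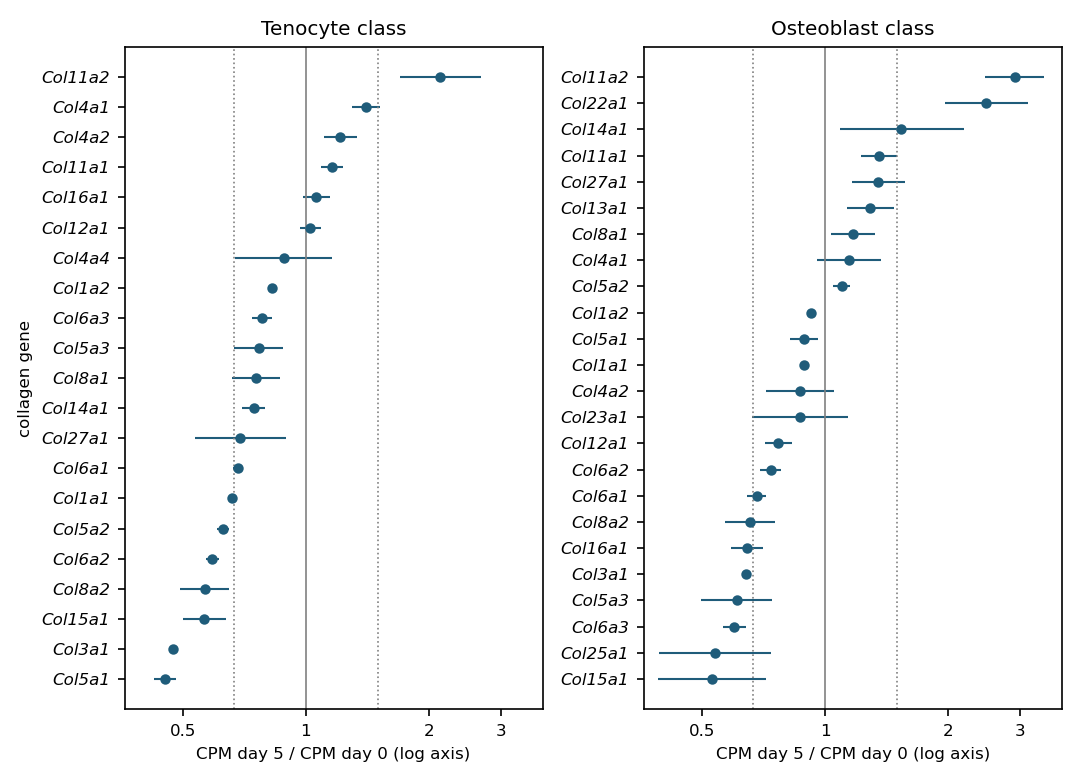
Ratio of CPM at day 5 to CPM at day 0 (x axis, log scale) for collagen genes that reach 10 CPM in either library, in tenocytes (left) and osteoblasts (right); bars are 95% counting intervals and dotted lines mark 1.5-fold either way. Col5a1 and Col3a1 lie lowest in tenocytes at 0.452 and 0.474, and Col11a2 lies highest in both panels at 2.13 and 2.91.

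Pi16 fibroblasts, which are regarded as progenitor-like cells of the outer sublining, had main chains that lay close between the days. Col1a2 stood at 3539 and 3366 CPM (0.951), Col6a1 at 812 and 808 CPM (0.995) and Col14a1 at 379 and 366 CPM (0.966), while Col3a1 stood at 2550 and 2869 CPM (1.13). Of 24 members 5 (20.8%) were at least 1.5-fold higher, against 7.61% of 11642 genes, and 3 (12.5%) lower, against 6.81%. Next to Col4a1 and Col4a2 (28.8 and 47.1 CPM, 1.64) these were Col5a3 at 66.4 and 111 CPM (1.67, 1.47 to 1.89), Col16a1 at 27.3 and 41.8 CPM (1.53) and Col11a1 on 12 and 9 UMIs. The lower members were Col8a1 (7.64 and 4.23 CPM), Col8a2 and Col23a1. Col16a1 changed direction under 1 alternative. Of 72 handling genes 3 were higher and 2 lower, against 7.61% and 6.81% of all genes.

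Lining cells were few, and most members lay close between the days. Of 20 members 3 (15%) were at least 1.5-fold higher, against 8.81% of 10034 genes, and 1 (5%) lower, against 7.5%. Col4a5 stood at 4.13 and 10.9 CPM (2.65, 1.27 to 5.92) on 11 and 27 UMIs, and Col16a1 at 28.9 and 54.7 CPM (1.89, 1.42 to 2.54). Col8a1 stood at 27.03 and 12.6 CPM (0.465, 0.295 to 0.718). Col14a1, at 13.9 and 25.1 CPM, changed direction under 2 alternatives. Col1a1 stood at 899 and 881 CPM (0.980, 0.924 to 1.04). Among handling genes 13 of 69 were higher and 2 lower, against 8.81% and 7.5% of all genes. Comp, a pentameric fibril binder, stood at 661 and 1184 CPM and Timp3 at 95.7 and 213 CPM, and Loxl2 at 155 and 96.9 CPM.

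In the chondrocyte class 7 of 22 members (31.8%) were at least 1.5-fold higher, against 14.7% of 6728 genes, and 4 (18.2%) lower, against 12.5%. Col8a2 stood at 83.7 and 42.7 CPM (0.510, 0.310 to 0.814) and Col15a1 at 120 and 73.4 CPM (0.610, 0.418 to 0.878), and both kept a difference of at least 1.5-fold under all 11 alternatives. Col1a1 stood at 1077 and 3113 CPM (2.89), Col3a1 at 442 and 1004 CPM (2.27) and Col1a2 at 1465 and 2878 CPM (1.96), beside the Ibsp and Saa3 levels given above, whose part was not tested. These 3 members were lower at day 5 under 3 alternatives, and Col10a1 was higher under 4. The class held from 46 and 19 cells to 758 and 516 cells over the settings, so only Col8a2 and Col15a1 are taken from it by day.

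The members not yet named were scarce. Col4a3, Col6a5, Col6a6, Col7a1, Col9a2, Col17a1, Col20a1, Col26a1 and Col28a1 stayed under 10 CPM in every class and cluster of at least 50 cells, in both libraries. Col6a6, a type VI chain, was highest in Pi16 cells at 8.22 and 6.49 CPM. Col28a1, at 9.11 CPM, and Col26a1, at 4.18 CPM, were highest in fibroblast cluster 2 at day 5, on 24 and 11 UMIs. Col17a1, the transmembrane collagen of epithelial anchoring, had 23 and 35 UMIs in all, and Col7a1, of anchoring fibrils, 12 and 37. Col23a1, a transmembrane collagen, was steadier in osteoblasts at 25.9 and 22.5 CPM. Fibroblast cluster 11 held more Col23a1 at day 5, at 35.6 CPM on 47 UMIs.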

How the data were processed

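Per the file headers, the authors deposited 10x 3′ UMI counts per gene and barcode from Cell Ranger 6.0.1 on mm10; the submitters' processing notes also name Seurat 4.3.0, with no role. Antisense or overlapping partners (Col4a1 with Col4a2, Col9a3 with Tcfl5, Col18a1 with Slc19a1, Col10a1 with Nt5dc1) could share tags only where counting ignored strand, which is not given in the sources used here.

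Barcodes with under 500 genes, under 1000 UMIs or over 10% mitochondrial UMIs were left out. The highest Scrublet scores, at 0.8% per 1000 barcodes, were removed as doublets (456 and 1064 cells), since Scrublet's own threshold called 2 and 0. Cells were clustered with scanpy 1.11.5 (2000 variable genes without collagens, 30 components, 15 neighbours, Leiden resolution 1.0, and 0.5 within fibroblasts) and named from marker lists. UMIs were summed per class and library and divided by the class total, as CPM. Ratios carry exact conditional binomial intervals of 95%, and shares of cells Clopper-Pearson intervals. Genes needed 20 counts over both groups compared, and 1.5-fold was the size counted. PCR and sampling beyond counting are not covered. The simulation that follows drew counts with counting error alone, which the intervals assume, from genes held to a higher minimum than 20 counts. It checks the calculation only and bears on no difference between libraries or animals. On simulated counts with genes changed 1.5-fold, the direction was right for 97 of 97 in tenocytes, 84 of 84 in osteoblasts, 98 of 98 in lining cells, 101 of 102 in Pi16 cells and 102 of 104 in chondrocytes, and the interval held the true fold for 92, 80, 90, 95 and 101 of them.

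The members, gene lists and markers were chosen with earlier results of these data known. The rule for naming clusters, the share of cells used for the myeloid values and 3 alternatives were set after the data were seen. All members are accounted for. Up to 6 members per direction and class are named, if the higher library reaches 10 CPM and the interval leaves out 1. Of the pathway lists up to 4 genes per direction are named. Alternatives changed the cell filter, doublets, resolution, clustering genes, scaling (edgeR 4.0.16, DESeq2 1.42.0), denominator, averaging, depth and count minimum.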

Additional observations from a re-analysis of the deposited data

Results flagged for a closer look

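Some members had day 5 to day 0 ratios on opposite sides of 1 in different classes, and none of these differences was tested. Several change direction with the settings: Col3a1 and Col1a1 in chondrocytes under 3 of 11 alternatives, Col3a1 and Col5a3 in osteoblasts under 2, and Col16a1 in Pi16 cells under 1. The ratio of Col3a1 was 2.27 in chondrocytes, 0.474 in tenocytes and 0.642 in osteoblasts. That of Col1a1 was 2.89 in chondrocytes and 0.659 in tenocytes. For Col16a1 it was 1.89 in lining cells, 1.53 in Pi16 cells and 1.59 in chondrocytes, against 0.645 in osteoblasts. For Col5a3 it was 1.67 in Pi16 cells and 0.609 in osteoblasts.

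The day 9 myeloid library, which enters no comparison, also held collagen UMIs in its 5945 cells. No share from free RNA was measured for it. Col27a1 stood at 44.2 CPM, with a UMI in 9.22% of cells (8.49% to 9.98%), and its 2714 UMIs were 1.57 times those of Col1a1. Among the 5665 cells with no UMI of Col1a1, Col1a2 or Col3a1 the share was 9.02%. Col14a1 stood at 8.24 CPM, Col15a1 at 6.58 CPM and Col18a1 at 6.44 CPM, with UMIs in 5.08%, 3.43% and 3.10% of cells. Among the cells without type I and III UMIs the shares were 4.91%, 3.30% and 2.88%.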

How the results depend on the processing

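No paired analysis was possible because each day has 1 library and no replicate. Of 45 member ratios called by class, 33 kept their direction under all 11 alternatives and 16 stayed at least 1.5-fold apart. Class values depend on how cells were grouped; the cause was not tested. Counts are of members at least 1.5-fold higher or lower, and values are log2 ratios. With the stricter cell filter there were 1 higher in lining cells, 2 higher and 5 lower in Pi16 cells, 6 and 13 in osteoblasts and 3 higher in chondrocytes; reversed were osteoblast Col6a3 (0.12), Col5a3 (1.39) and Col3a1 (0.34), chondrocyte Col1a1 (-0.61), Col3a1 (-0.50), Col1a2 (-0.21) and Col10a1 (0.47), and Saa3 Col5a3 (-0.13). Without doublet removal there were 0 lower in lining cells, 2 higher in Pi16 cells, 6 higher and 4 lower in tenocytes, 5 higher in osteoblasts and 2 lower in chondrocytes, and lining Col14a1 reversed (-0.29). At resolution 0.5 there were 2 lower in lining cells, 5 higher in tenocytes, 8 higher in osteoblasts and 2 lower in chondrocytes; reversed were osteoblast Col6a3 (0.18), Col5a3 (1.07) and Col3a1 (0.23), chondrocyte Col10a1 (0.32) and Saa3 Col5a3 (-0.29). At resolution 2.0 there were 3 lower in lining cells, and 2 higher and 5 lower in Pi16 cells; reversed were lining Col14a1 (-0.24), Pi16 Col16a1 (-0.12) and chondrocyte Col1a1 (-0.40), Col3a1 (-0.65), Col1a2 (-0.25) and Col8a1 (0.27). With collagens kept for clustering there were 5 higher and 2 lower in lining cells, 5 lower in osteoblasts, and 3 higher and 7 lower in chondrocytes; reversed were chondrocyte Col1a1 (-0.79), Col3a1 (-0.80), Col1a2 (-0.34) and Col12a1 (-0.24). With the mean of CPM per cell chondrocyte Col10a1 reversed (0.39). With cells thinned there were 4 lower over all cells, 0 lower in Pi16 cells, 2 lower in osteoblasts, and 3 higher and 2 lower in chondrocytes; reversed were osteoblast Col14a1 (-0.055), chondrocyte Col10a1 (0.39) and Saa3 Col22a1 (0.032). With no count minimum there were 11 higher and 6 lower in lining cells, 14 and 6 in Pi16 cells, 10 and 13 in tenocytes, 9 higher in osteoblasts, and 14 and 7 in chondrocytes. Chosen after seeing the data, tenocyte cluster 0 alone had 5 lower and Col11a2 at -0.12, tenocyte cluster 1 alone had 1 higher, and chondrocyte cluster 15 alone had Col12a1 at -0.11. Cell numbers limit the lining (144 and 159), chondrocyte (100 and 57) and endothelial (83 and 53) values.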
